A study of Mus musculus with 15 samples.

Results

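The comparison described here sets antibiotic-treated against untreated mouse medial prefrontal cortex after fear extinction. It takes the 8 of 15 RNA-seq libraries that the sample labels place after fear extinction, 4 labelled as ABX treated and 4 as not treated, and reads every difference as ABX against non-ABX. All 8 came from dissected medial prefrontal cortex (mPFC) of C57BL/6J mice, and both groups had gone through fear extinction, so the treatment is the labelled difference between them. ABX commonly stands for an antibiotic mixture. The labels do not give its agents, dose or route, nor the sex and age of the mice. The other 7 libraries, 4 ABX and 3 non-ABX, were taken before extinction and serve here to estimate the spread between libraries and to give a second ABX contrast that shares no library with the first. The labels do not say that each library is 1 mouse, so all p-values reflect spread among libraries, which may be technical.

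The mPFC is a cortical region needed to learn and store fear extinction, the decline of a conditioned fear response when its cue is repeated without harm. Depleting gut bacteria with antibiotics is a common way to ask whether the microbiota acts on the brain. The brain's blood vessels are one surface between the circulation and neurons: endothelial cells joined by tight junctions form the blood-brain barrier, pericytes and smooth muscle cells wrap them, and a basement membrane of laminins, collagens and linker proteins lies between these cells and astrocytes. Glucocorticoids, the hormones of the adrenal stress axis, reach the cortex through those vessels and act through a nuclear receptor that switches on a known set of target genes.

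The 8 libraries were close in depth, with 45832528 to 48830512 counts in the ABX libraries and 47863644 to 53892681 in the non-ABX libraries, and 19652 to 19824 genes had counts in each. Cortical markers were present in all 8: Slc17a7, the vesicular glutamate transporter of cortical excitatory neurons, was at 1461 to 1783 CPM (counts corrected for each library's size) and Tbr1, a transcription factor of cortical excitatory neurons, at 122 to 144 CPM. Of the striatal receptor genes checked, Drd2 was at 0.504 to 0.979 CPM, Adora2a at 1.09 to 1.91 CPM and Drd1 at 6.24 to 11.48 CPM. Drd1 ran from 9.046 to 11.48 CPM with ABX and from 6.24 to 10.73 CPM without. The choroid plexus marker Folr1 was at 0.206 to 0.468 CPM. One protocol field of the labels speaks of sorted cells while the source field names dissected tissue. Neurons, glia and vessel genes were all measured in each library, as the values below show. On the first principal component of the 8 libraries, which held 34.2% of the variance, ABX libraries ran from -25.2 to -0.833 and non-ABX libraries from 0.67 to 24.5. The mitochondrially encoded share of counts was 3.47% to 5.23% with ABX and 3.23% to 4.76% without. The part of this share in the results below was not tested.

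Of 16816 genes tested, 3 differed between ABX and non-ABX libraries after extinction at an adjusted p under 0.05 (edgeR quasi-likelihood test), which is 0.0178%. Krt9 and Pkp2 rose with ABX and Npnt fell. With the GC-content trend of each library removed 65 genes passed, 29 higher and 36 lower, against 2 higher and 1 lower without that step. Many more genes showed separated groups: the 4 ABX libraries lay all above the 4 non-ABX libraries for 797 genes (4.74%) and all below them for 1070 (6.36%). Of those, 110 and 163 had a log2 fold change beyond 0.5 in size. At an unadjusted p under 0.05 there were 1083 higher and 1146 lower genes, and the median log2 fold change over all genes tested was 0.0071.

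Pkp2 encodes plakophilin 2, which ties desmosomal cadherins to intermediate filaments at cell junctions (Entrez 67451, chromosome 16, 16213345 to 16272712, mm10). It stood at 8.96, 12.1, 11.7 and 11.1 CPM in ABX replicates 1 to 4 and at 6.91, 6.73, 6.48 and 6.67 CPM in the non-ABX replicates. All ABX libraries were higher, ABX replicate 1 least so, and the non-ABX libraries hardly differed among themselves. ABX libraries exceeded the others by 0.71 on the log2 scale (SE 0.11), at an edgeR adjusted p of 0.0454. Krt9 encodes a type I keratin, an intermediate filament protein best known from thick skin (Entrez 107656, chromosome 11, 100186781 to 100193246). It was at 8.22, 8.58, 8.36 and 8.83 CPM with ABX and at 5.02, 5.90, 5.16 and 6.10 CPM without, with no overlap. This gave a log2 fold change of 0.62 (SE 0.09) and an edgeR adjusted p of 0.0453.

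The other desmosome and keratin genes did not pass the test. Of the 28 genes on this list 20 passed the filter on low counts, 16 with a positive and 4 with a negative log2 fold change (median 0.13). The 2 that passed the test are the 2 named above. Desmoplakin, which Dsp encodes and to which plakophilins bind, was barely detected at 0.126 to 0.222 CPM in the 8 libraries. Jup, which encodes the junction protein plakoglobin, averaged 30.4 ± 4.14 CPM with ABX against 38.6 ± 2.60 CPM (SD, n = 4 each; log2 fold change -0.34, adjusted p = 0.423). Jup and the keratins Krt12 (-0.24) and Krt20 (-0.30) had non-overlapping groups with lower ABX libraries. These were 3 of the 20 tested genes, against 6.36% of all genes tested, and 2 lay all above, against 4.74%.

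Npnt encodes nephronectin, an extracellular matrix ligand of the integrin that contains the alpha 8 chain (Entrez 114249, chromosome 3, 132881745 to 132950291). It was at 27.0, 26.5, 25.6 and 22.8 CPM with ABX against 33.3, 38.5, 38.4 and 34.8 CPM without. The groups did not overlap, and the gap between the highest ABX and the lowest non-ABX library was wider than the range within either group. The fitted log2 difference was -0.51 (SE 0.08), at an edgeR adjusted p of 0.0454. Itga8, which encodes that alpha 8 chain, averaged 11.5 ± 1.03 CPM with ABX against 8.75 ± 1.18 CPM, again with no overlap but in the other direction (0.39, SE 0.11, adjusted p = 0.205).

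**Figure D1:**
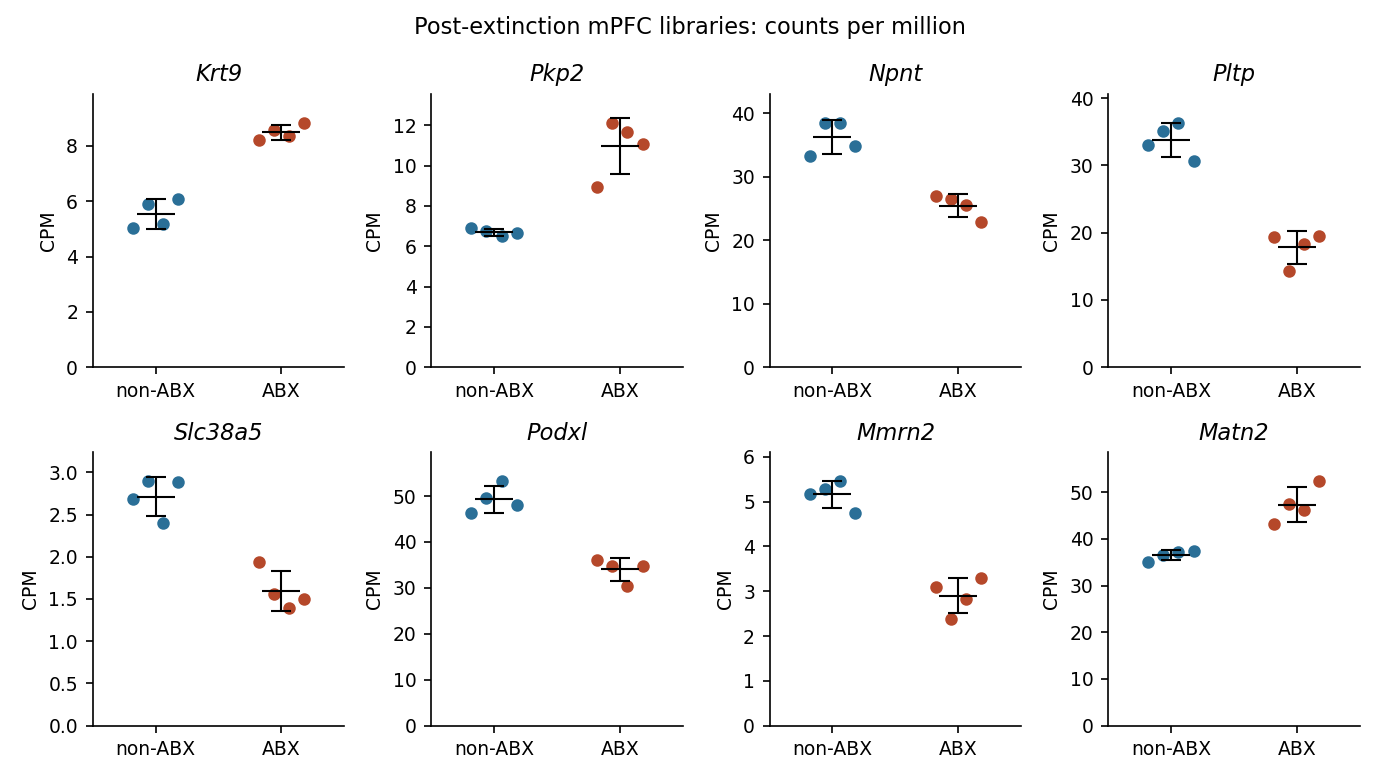
CPM of 8 genes in the post-extinction libraries. Each dot is 1 library, the horizontal mark is the mean and the bar ± 1 SD (n = 4 per group); the vertical axes start at 0. Krt9, Pkp2 and Npnt passed the test, the other 5 had adjusted p from 0.0675 to 0.0795, and no panel shows overlapping groups.

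The stretches just before the start sites of 2 of the called genes, Krt9 and Npnt, are printed as examples. Pkp2 had no promoter entry. Both hold the 250 bases upstream of the RefSeq start (GRCm38.p6, the assembly mm10 names), 5′ to 3′ on the gene's strand. Krt9 lies at chr11:100193247-100193496, minus strand, and its capitals mark the letters TATAA, 40 bases before the start. Npnt lies at chr3:132950292-132950541, minus strand, and its capitals mark 3 matches of the GC box GGGCGG on either strand.
Krt9: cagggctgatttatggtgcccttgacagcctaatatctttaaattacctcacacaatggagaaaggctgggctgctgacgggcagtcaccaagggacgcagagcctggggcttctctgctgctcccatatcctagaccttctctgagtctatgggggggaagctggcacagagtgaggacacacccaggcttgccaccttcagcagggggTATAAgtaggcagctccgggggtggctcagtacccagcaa
Npnt: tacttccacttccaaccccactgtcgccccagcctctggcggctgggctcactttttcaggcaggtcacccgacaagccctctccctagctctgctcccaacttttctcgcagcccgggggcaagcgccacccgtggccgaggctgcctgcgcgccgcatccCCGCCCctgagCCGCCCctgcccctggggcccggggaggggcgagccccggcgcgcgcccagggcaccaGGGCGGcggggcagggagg
Of the 12772 tested genes with a promoter entry, 10.8% had TATAA on the gene's strand and 59.9% had the GC box on either strand in such a stretch. A match describes letters only.

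Next to the threshold, with an adjusted p under 0.1, stood 9 more genes, of which 6 had an ordinary symbol and a mean of at least 1 CPM. Pltp encodes the phospholipid transfer protein, which moves lipids between lipoproteins and is a target of the sterol sensors called LXR. It was at 19.3, 14.2, 18.3 and 19.5 CPM with ABX and at 33.0, 35.2, 36.3 and 30.7 CPM without (log2 fold change -0.92, SE 0.16, adjusted p = 0.0675). The highest ABX library lay far under the lowest non-ABX library. Slc38a5, a glutamine carrier of brain endothelium, was at 1.94, 1.56, 1.39 and 1.5 CPM against 2.68, 2.89, 2.4 and 2.88 CPM (-0.77, SE 0.14, adjusted p = 0.0675). Podxl, the gene of podocalyxin, a sialomucin coat protein of endothelium, was at 36.1, 34.8, 30.4 and 34.8 CPM against 46.4, 49.5, 53.2 and 48.1 CPM (-0.53, SE 0.10, adjusted p = 0.0675). Mmrn2, an endothelial matrix glycoprotein, ran from 2.39 to 3.29 CPM with ABX and from 4.75 to 5.45 CPM without (-0.83, SE 0.15, adjusted p = 0.0795). Slc38a5, Podxl and Mmrn2 are all on the vessel lists used here. Pdzrn3, a ubiquitin ligase with PDZ domains, had 44.1 to 49.3 CPM against 55.9 to 69.2 CPM (-0.46, adjusted p = 0.0784). Matn2, a matrix adaptor protein, was the 1 higher gene of the 6, at 43.2 to 52.3 CPM with ABX and 34.98 to 37.4 CPM without (0.38, SE 0.07, adjusted p = 0.0675).

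Further genes of small p had adjusted p from 0.101 to 0.159, and their values are given without a call. On the higher side were Zcchc12 (0.41), a coactivator of bone morphogenetic protein signalling, Rhou (0.39), an atypical small GTPase, and Mrap2 (0.47), an accessory protein of melanocortin receptors. Sla, an adaptor of kinase signalling, had 0.67, the adhesion protein gene Amigo2 0.42, the protease inhibitor gene Spink8 0.93, the p53 target Trp53inp1 0.63 and the astrocyte enzyme gene Etnppl 0.89. On the lower side were Cxcl12 (-0.39), a chemokine made by vessels among other cells, Fn1 (-0.56), which encodes fibronectin, and Ptgfrn (-0.47), a membrane partner of tetraspanins. Maml3, a Notch coactivator, had -0.83, Fstl4, a follistatin relative, -0.63 and Syt2, a fast calcium sensor of vesicle release, -0.51. In none of these genes did a library cross between the groups. Among named genes with a mean of at least 1 CPM, non-overlapping groups and an unadjusted p under 0.01, further large fold changes were those of Rtp1 (1.37), Nlrp6 (0.85), Efcab3 (0.83), Ndufa8 (-1.55), Tmem200b (-0.97) and Acta2 (-0.91). Rtp1 was at 2.67 CPM in ABX replicate 4 and at 0.987 to 1.28 CPM in the other ABX libraries. Its fold change ran from 0.93 to 1.52 with 1 library left out. Ndufa8 and Tmem200b passed in 0 of 16 alternative fits.

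Endothelial genes lay lower with ABX almost throughout. Of 44 genes, all of them tested, 41 had a negative log2 fold change and 3 a positive one, with a median of -0.34 against 0.0071 over all genes, and 0 passed the test. In 19 of the 44 the ABX libraries lay all below the non-ABX libraries, where 6.36% of all genes tested did so, and in 1, Nostrin, all above (0.40). All lists here were chosen with earlier results of these data known, so such shares describe the list and are no test. The mean log2 CPM of the list was 3.13, 2.90, 3.07 and 3.28 in the ABX libraries and 3.47, 3.52, 3.49 and 3.37 in the non-ABX libraries. These list levels did not overlap. In bulk tissue, fewer cells of a type and less RNA per cell cannot be told apart.

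By role, the receptors and signalling proteins stood lowest. Of these 16 genes 13 were negative (median -0.48), and 10 had all ABX libraries below, against 6.36% of all genes tested. Eng, a coreceptor for transforming growth factor beta family ligands, stood at 12.3, 10.6, 13.7 and 15.3 CPM with ABX and at 19.2, 23.2, 20.6 and 21.5 CPM without (-0.70, adjusted p = 0.166). Its partner receptor Acvrl1 had -0.50. Nos3, the endothelial nitric oxide synthase, was at 5.51, 5.45, 7.23 and 7.33 CPM against 11.2, 12.1, 10.6 and 9.86 CPM (-0.77, adjusted p = 0.182), and the orphan receptor gene Tie1 at 4.98 to 7.37 CPM against 9.76 to 12.4 CPM (-0.75). The receptors for vascular endothelial growth factor stood at -0.48 (Kdr) and -0.47 (Flt1), and the angiopoietin receptor gene Tek at -0.34. Eng and Acvrl1 act in one receptor complex, and Kdr, Flt1, Tek and Tie1 are receptor tyrosine kinases.

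All 17 junction and surface genes were negative, with a median of -0.32. Cdh5, the cadherin that holds endothelial cells together, ran from 9.28 to 13.5 CPM with ABX and from 14.1 to 16.7 CPM without (-0.45, adjusted p = 0.174). Cldn5, the main tight junction claudin, was at 7.26, 6.96, 8.02 and 14.4 CPM against 17.2, 17.5, 14.5 and 11.7 CPM (-0.73, adjusted p = 0.273). Here the groups overlapped, because ABX replicate 4 was higher than non-ABX replicate 4. All 11 endothelial transcription factors were negative as well (median -0.30), with Sox17 at -0.57, Sox18 at -0.63 and Erg at -0.26. The carriers of the barrier were less one-sided: 15 of 22 were negative, with a median of -0.07. After Slc38a5 came Slc22a8, an organic anion carrier, at -0.32 and Slc38a3, another glutamine carrier, at -0.30. Slc2a1, the glucose carrier, had -0.25 (adjusted p = 0.595) and the efflux pump genes Abcb1a and Abcg2 had -0.16 and 0.10.

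**Figure D2:**
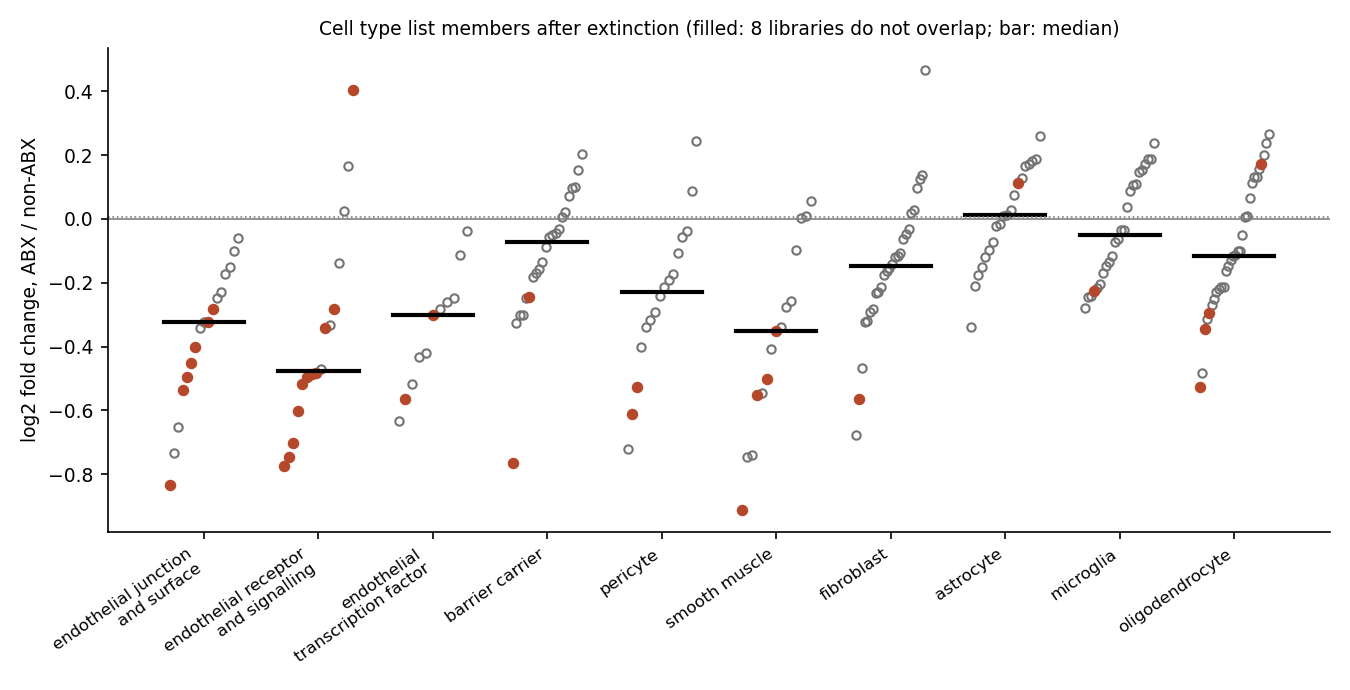
Log2 fold change of each tested member of 8 cell type and barrier lists, the endothelial list split by role. Filled dots are genes whose 8 libraries do not overlap, bars are medians, and the dotted line is the median of all genes tested (0.0071). The endothelial and smooth muscle bars lie between -0.30 and -0.48, those of astrocytes and microglia at 0.01 and -0.05.

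Smooth muscle genes stood about as low. Of the 17 contractile genes 15 were tested, 12 negative and 3 positive (median -0.35). In 4 all ABX libraries lay below, against 6.36% of all genes tested. Acta2, smooth muscle alpha actin, was at 6.75, 3.56, 3.63 and 5.85 CPM with ABX and at 8.28, 9.64, 9.58 and 9.69 CPM without (-0.91, SE 0.21, adjusted p = 0.166). The groups did not overlap, and the ABX libraries spread more widely than the others. Tagln, an actin-binding protein of the same cells, was at 4.51 to 6.49 CPM against 7.62 to 8.19 CPM (-0.55), and the myosin heavy chain gene Myh11 at 4.47 to 7.83 CPM against 7.11 to 11.6 CPM (-0.74). Of 16 pericyte genes 14 were negative (median -0.23, and -0.13 with the GC-content trend removed). The regulator gene Rgs5 had -0.40, with overlapping groups, and the hypoxia-linked Ndufa4l2 -0.61. The proteoglycan gene Cspg4, which oligodendrocyte precursors share, had -0.53, and -0.32 with the GC-content trend removed. Other members of the list did not go that way: Kcnj8 and Atp13a5 had 0.24 and 0.09, and Abcc9 and Higd1b only -0.04 and -0.06.

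The upstream stretch of the myosin light chain gene Myl9 (-0.41, adjusted p = 0.304) is shown because it alone of the 12 smooth muscle genes with a promoter entry held a CArG box. This motif, CC, then 6 bases that are A or T, then GG, is bound by serum response factor, a main driver of contractile genes. The 250 bases lie at chr2:156775214-156775463, plus strand (GRCm38.p6), and capitals mark the motif, which begins 161 bases before the start.
Myl9: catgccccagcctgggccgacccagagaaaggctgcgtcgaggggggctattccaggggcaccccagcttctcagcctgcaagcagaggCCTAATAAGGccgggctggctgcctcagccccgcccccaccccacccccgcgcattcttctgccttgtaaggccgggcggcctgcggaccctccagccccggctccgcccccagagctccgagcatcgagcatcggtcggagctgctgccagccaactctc
Tagln and Myh11 had no promoter entry, so they were not searched for the motif. Read on both strands, the motif was found for 1.39% of the 12772 tested genes with an entry. Its presence or absence in 250 bases says nothing of the factor's binding.

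Npnt belongs to the linkers and ligands of the basement membrane. Of these 13 genes 9 were negative (median -0.27), and 8 had all ABX libraries below, against 6.36% of all genes tested. Hspg2, which encodes perlecan, had -0.78, Tinagl1 -0.74, the netrin gene Ntn4 -0.45 and the nidogen genes Nid2 and Nid1 -0.42 and -0.28. Frem1, a matrix protein of epithelial basement membranes, lay all above, at 0.28. Of 13 collagens and laminins 10 were negative (median -0.19) and of 11 integrins 8 (median -0.07). Over all 37 genes of the list the median was -0.15, and -0.06 with the GC-content trend removed. Fibroblast and meningeal genes had 20 of 26 negative (median -0.15), with Fn1 at 82.9 to 111.7 CPM against 127 to 153 CPM, Col1a1 at -0.68 and Col6a1 at 0.47.

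Lists of other cell types had medians nearer to 0. Astrocyte genes had 11 of 20 positive (median 0.01), and microglial genes 14 of 24 negative (median -0.05). Oligodendrocyte genes had 19 of 30 negative (median -0.11, and -0.04 with the GC-content trend removed), among them Olig2 (-0.30), a lineage factor, and Mag (-0.34), a myelin glycoprotein. With that trend removed Olig2 had -0.09 and Mag -0.16. The other 11 were positive, among them the precursor gene Pdgfra (0.17), with all ABX libraries above, and the myelin gene Mal (0.24). Cortical layer markers had 13 positive and 14 negative genes. Within them, 11 of 18 deep layer markers were positive (median 0.13) and 7 of 9 upper layer markers negative (median -0.15). The levels of both roles overlapped between groups. The mean log2 CPM of the deep layer markers was 4.505 to 4.651 with ABX. It was 4.222, 4.383, 4.381 and 4.691 in non-ABX replicates 1 to 4, so replicate 4 stood highest of the 8 libraries. Of 18 blood cell genes 7 were tested, and their mean log2 CPM was 0.546 in ABX replicate 1 and -3.09 to -1.13 in the other 7 libraries. Without that library the endothelial median was -0.40, with 41 of 44 negative, and the smooth muscle median -0.41.

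**Figure D3:**
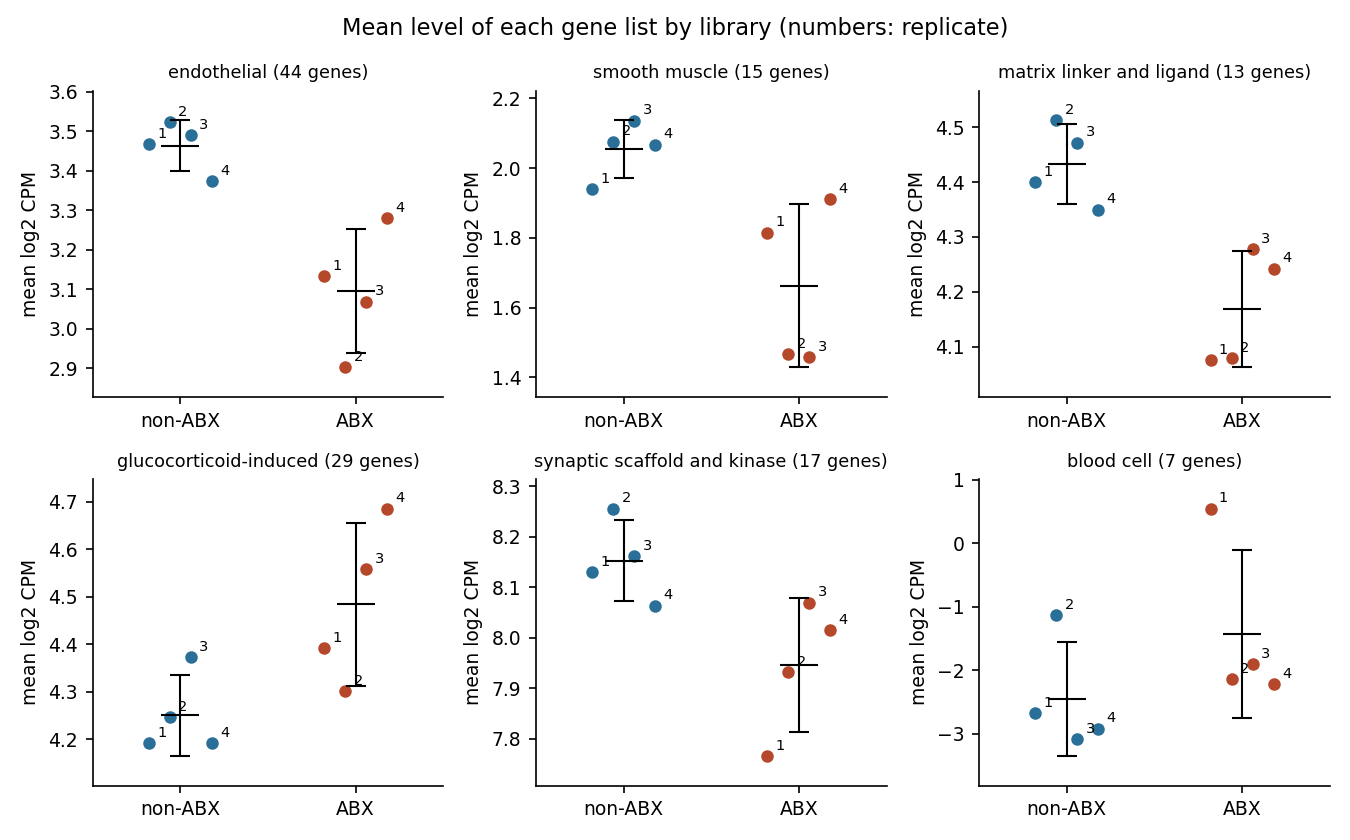
Mean log2 CPM of 6 gene lists in each of the 8 post-extinction libraries, with replicate numbers beside the dots, the mean as a horizontal mark and ± 1 SD as a bar (n = 4 per group). The endothelial, smooth muscle and matrix linker levels did not overlap between groups, the glucocorticoid-induced and scaffold levels did, and ABX replicate 1 stood apart in blood cell genes.

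Genes induced by glucocorticoids leaned upward with ABX. Of 29 such targets 23 had a positive log2 fold change (median 0.25), 0 passed the test, and in 7 the ABX libraries lay all above the non-ABX libraries, where 4.74% of all genes did. Hif3a, a hypoxia-inducible factor subunit induced by the hormone, was at 21.8, 28.2, 26.4 and 30.8 CPM with ABX and at 16.5, 13.6, 20.6 and 16.1 CPM without (0.68, SE 0.18, adjusted p = 0.181). Fkbp5, a cochaperone that damps the receptor, was at 48.2, 55.9, 59.5 and 67.2 CPM against 46.7, 43.5, 47.2 and 38.9 CPM (0.39, adjusted p = 0.275). Both genes had every ABX library above every non-ABX library, by a narrow margin at the nearest pair. Tsc22d3, the leucine zipper protein GILZ, had 0.31, the sulfotransferase gene Sult1a1 0.51, the pyruvate dehydrogenase kinase gene Pdk4 0.42 and Rhou 0.39. Plin4, a lipid droplet protein, was at 7.66, 11.0, 16.2 and 26.5 CPM against 8.02, 7.34, 10.1 and 7.003 CPM (0.92, adjusted p = 0.285), so ABX replicates 3 and 4 carried its difference. Per1 and both metallothionein genes, Mt1 and Mt2, were negative, at -0.13, -0.14 and -0.11.

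The receptors and hormone system did not share that lean. With them, the 35 genes of the list had a median of 0.15, and of 0.25 with the GC-content trend removed. Of the 6 receptor and hormone genes 5 were negative (median -0.07), and Hsd11b1, the enzyme that regenerates active hormone, had -0.07. Before extinction, 18 of the 29 targets were negative (median -0.14). Hif3a then stood at -0.32, Fkbp5 at -0.14, Tsc22d3 at -0.18, Zbtb16 at -0.41 and Plin4 at -0.50. The difference between the ABX effects after and before extinction was 1.00 for Hif3a, 0.53 for Fkbp5 and 0.49 for Tsc22d3, with an edgeR adjusted p of 0.9999 as the lowest of the list. These differences therefore did not pass over all genes.

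**Figure D4:**
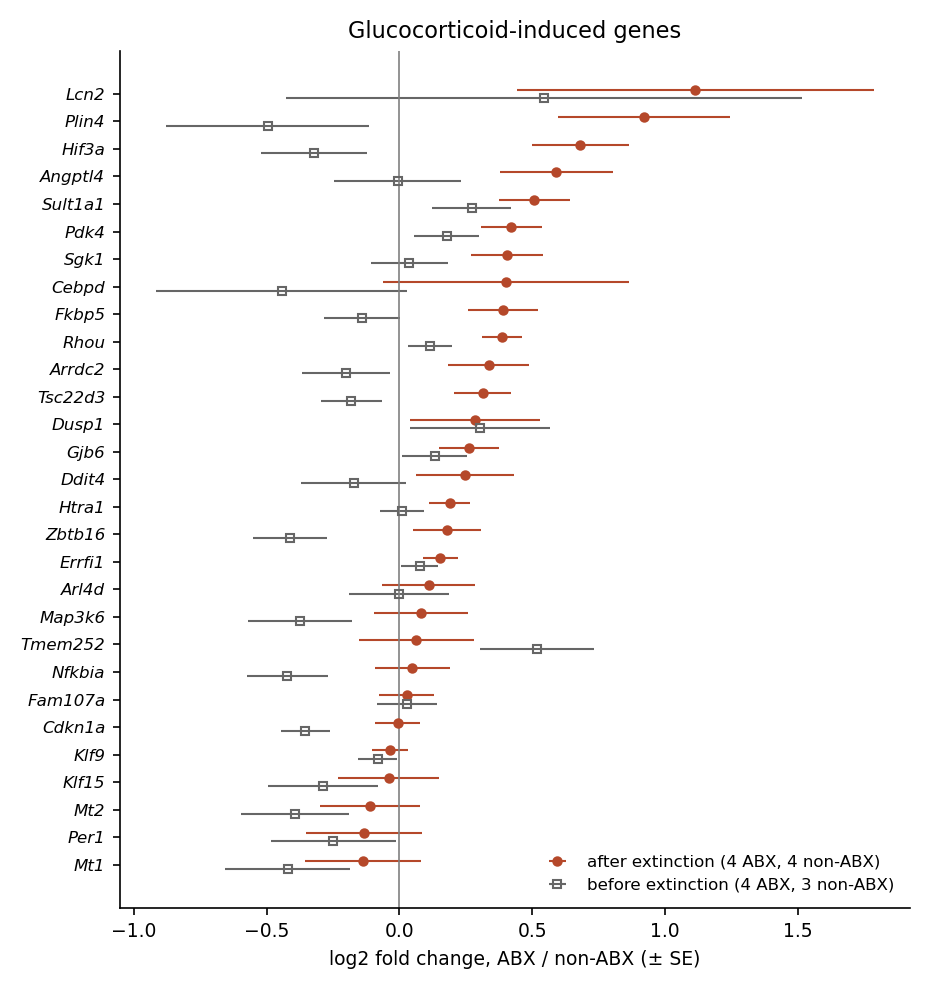
Log2 fold change ± SE of 29 glucocorticoid-induced genes after extinction (filled circles) and before it (open squares), ordered by the value after extinction. After extinction 23 lie above 0, before extinction 11.

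Sgk1, a kinase gene and a classic target, is shown because its upstream stretch alone among the 12772 tested genes with an entry held the full palindrome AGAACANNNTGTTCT, the glucocorticoid response element. Its level was 67.0, 63.6, 69.8 and 92.2 CPM with ABX and 52.6, 45.6, 56.7 and 66.2 CPM without, with overlap between ABX replicate 2 and non-ABX replicate 4 (0.40, SE 0.13, adjusted p = 0.273). The 250 bases lie at chr10:21993640-21993889, plus strand (GRCm38.p6), and the capitals mark the element, which begins 189 bases before the start.
Sgk1: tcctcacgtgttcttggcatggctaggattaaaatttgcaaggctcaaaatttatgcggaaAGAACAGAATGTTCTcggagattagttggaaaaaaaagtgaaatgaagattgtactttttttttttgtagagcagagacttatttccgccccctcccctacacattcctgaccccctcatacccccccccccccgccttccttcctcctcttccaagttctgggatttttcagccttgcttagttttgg
Of 26 list genes with an entry it was the 1 with a match, a description of letters in this window only.

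Neuronal lists differed little in their medians, with some roles lower. Among genes of the glutamate synapse 27 of 39 were negative (median -0.08). Its 17 scaffold and kinase genes had 14 negative (median -0.14), 6 with all ABX libraries below, against 6.36% of all genes tested. The scaffolds Shank1, Shank3 and Dlgap4 had -0.47, -0.46 and -0.40, but -0.21, -0.18 and -0.17 with the GC-content trend removed. Cacng2, which encodes the AMPA receptor partner stargazin, ran from 40.3 to 48.5 CPM with ABX and from 53.3 to 63.1 CPM without (-0.39, adjusted p = 0.174, and -0.38 with that trend removed). AMPA receptor genes themselves were even, with 5 positive and 6 negative.

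Axon guidance genes had 41 of 50 negative (median -0.12, and -0.12 with the GC-content trend removed). In 12 all ABX libraries lay below, as in 6.36% of all genes tested. Sema7a, a semaphorin of cortical neurons, stood at 177, 160, 196 and 178 CPM with ABX and at 240, 276, 231 and 226 CPM without (-0.45, adjusted p = 0.166). The guidance receptor genes Robo3, Plxnd1 and Ephb1 had -0.60, -0.52 and -0.26. With the GC-content trend removed Sema7a had -0.26, Robo3 -0.41 and Ephb1 -0.21. Ligands and receptors were alike in their medians, both -0.12. Potassium channel genes had 34 of 41 negative (median -0.11). The fast channel gene Kcnc1 had -0.18, and -0.0031 with the GC-content trend removed. Calcium genes had 25 of 40 negative (median -0.08), with the plasma membrane pump gene Atp2b2 at 868 to 1014 CPM against 1127 to 1366 CPM (-0.42). Vesicle release genes had 26 of 40 negative (median -0.07), with Syt2 at -0.51 and the active zone gene Unc13c at 0.34. Of 30 genes of GABA signalling and interneurons 19 were negative (median -0.05), the lowest in p being the receptor gene Gabbr2 at -0.29.

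Immediate early genes, induced within minutes of neuronal firing, had 17 positive and 19 negative members after extinction. Their median was -0.03 and their mean 0.02, and the median was 0.08 with the GC-content trend removed. Inhba, an activin subunit, had -0.60 (adjusted p = 0.166), Ptgs2 0.38 and Fosb 0.43. Arc, whose transcript travels to active synapses, was at 51.1 CPM in non-ABX replicate 1 and at 130 to 248 CPM in the other 7 libraries. Sterol synthesis genes had 12 of 20 positive (median 0.09), with Cyp51 at 0.25, Fdft1 at 0.23 and Msmo1 at 0.30, all with non-overlapping groups. In 5 of these 20 genes all ABX libraries lay above, against 4.74% of all genes tested. Srebf2, which encodes a transcription factor of sterol synthesis genes, had -0.35. Of 6 regulators, it and Scap (-0.26) had all ABX libraries below, against 6.36% of all genes tested, and Insig1 (0.19) all above. Lipoprotein and LXR genes had 19 of 25 negative (median -0.12, and -0.04 with the GC-content trend removed), led by Pltp and by Lcat (-0.37), which esterifies cholesterol. Antigen presentation genes had 10 of 11 negative (median -0.15), with the class I genes H2-D1 and H2-K1 at -0.50 and -0.37.

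**Figure D5:**
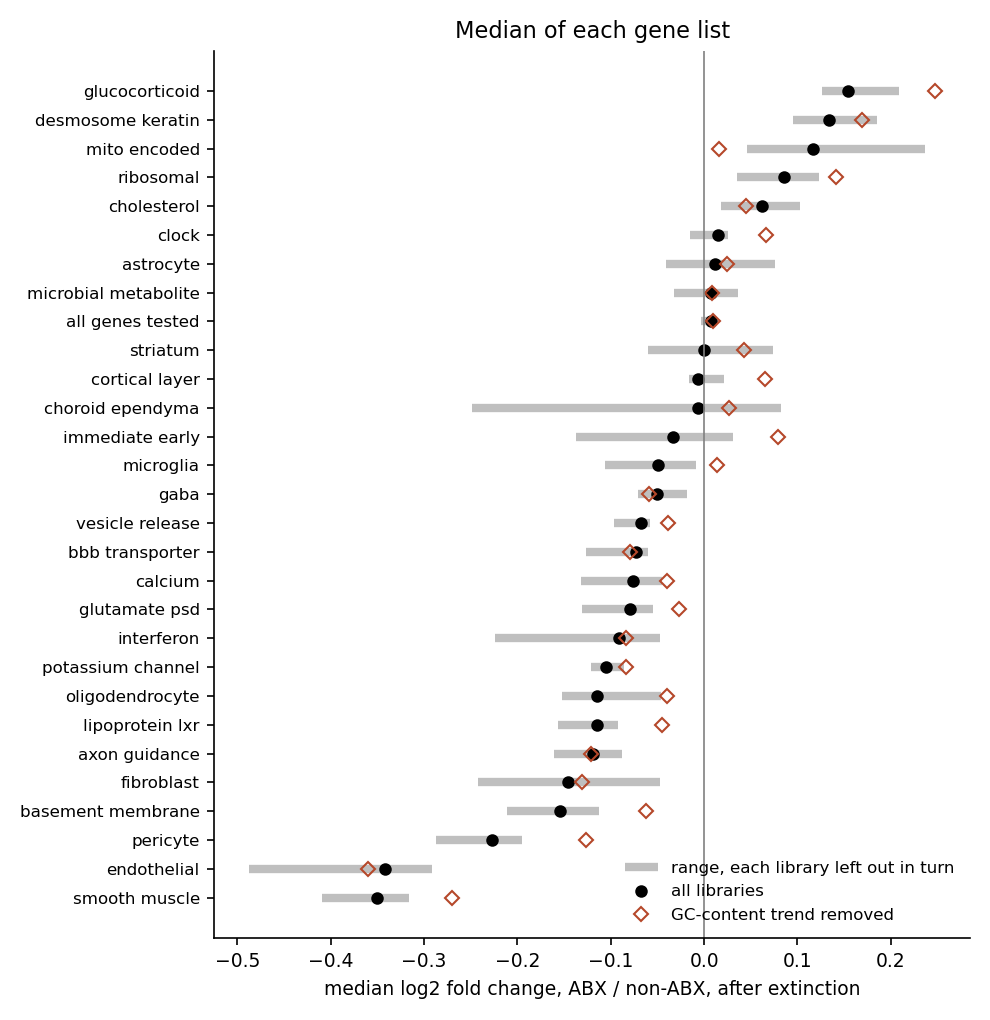
Median log2 fold change of 28 gene lists and of all genes tested, with all libraries (black dots), with the GC-content trend removed (open diamonds) and over the fits that leave out 1 post-extinction library (grey bars). Smooth muscle (-0.35) and endothelial (-0.34) medians lie lowest; the immediate early median turns from -0.03 to 0.08 with the GC-content trend removed.

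The second ABX contrast, before extinction, also had negative values for most vessel genes (42 of 44 endothelial), and the difference between the 2 contrasts passed for no gene. edgeR called 0 of 16816 genes (0%) for that difference, with 344 at an unadjusted p under 0.05. DESeq2 called 4, of which Pkp2, Myh6 and Fmo2 were positive and Prr16 negative, and voom called 0. Fmo2 is named here after its values were seen. Pkp2 had 0.71 after extinction and -0.10 before (difference 0.81, SE 0.16, edgeR adjusted p = 0.556). Krt9 had 0.62 and 0.41, and Npnt -0.51 and -0.23. The endothelial median was -0.34 after and -0.37 before, and the smooth muscle median -0.35 and -0.47. Podxl had -0.53 at both stages, Pltp -0.92 and -0.81, and Acta2 -0.91 and -0.89. Slc38a5 had -0.77 and -0.17 (difference -0.60, SE 0.20). The cardiac myosin gene Myh6 had -0.51 after and -1.74 before (difference 1.24, edgeR adjusted p = 0.556). A table of counts does not show whether reads of its close paralog Myh7 were counted with it.

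Other tools passed more genes after extinction. DESeq2 passed 182 genes, 98 higher (0.583%) and 84 lower (0.5%), and voom with sample quality weights 306 (142 higher, 164 lower), with 159 genes in both. DESeq2's calls held 9 of the 44 tested endothelial genes, all lower: Cd93, Cdh5, Eng, Flt1, Kdr, Mmrn2, Nos3, Podxl and Tie1. They also held 3 of the 15 tested smooth muscle genes, Acta2, Myh11 and Tagln, all lower, and 4 of the 29 glucocorticoid targets, Hif3a, Pdk4, Rhou and Sult1a1, all higher. The fit to the 8 post-extinction libraries alone passed 32 genes. DESeq2, voom, this fit and the fit with the GC-content trend removed shared 22 genes: the 3 called genes, Mmrn2, Eng, Nos3, Podxl, Slc38a5, Pltp, Fn1, Cxcl12, Ptgfrn, Matn2, Sla, Zcchc12, Maml3, Fstl4, Pdzrn3, Sema7a, Lrrk1, Adgre5 and Atp2a3. Leaving out ABX replicate 1 passed 6 genes, the 3 called ones among them, and leaving out any other of the 8 libraries passed 0.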

How the data were processed

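Bulk RNA of dissected mouse mPFC was measured in 15 libraries, and the deposited table holds whole-number read counts per Entrez gene identifier, which the authors made with CASAVA 1.8.2 and STAR 2.3.0 on build mm10, per the submitters' processing notes. No source used here gives the counting tool, annotation or strand setting. Symbols came from the RefSeq table of GRCm38.p6 (25275 of 27179 identifiers matched, holding 99.7% of counts). All 15 libraries entered 1 fit with 4 group means (edgeR 4.0.16 in R 4.3.3, TMM scaling, filterByExpr with a minimum count of 10, robust quasi-likelihood F tests), which left 16816 genes. Calls needed an adjusted p under 0.05 (Benjamini-Hochberg, all 16816 genes). CPM are counts scaled to library size with TMM factors.

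The text names every called gene, in each direction the 12 smallest p among genes at a mean of at least 1 CPM, the 6 largest non-overlapping fold changes in each direction among genes at that mean and p under 0.01, the 3 members of smallest p in each list, and the 3 smallest p of the difference between contrasts. A few genes picked by this rule are left out. Other list members are named for their role. The members and all 29 lists (820 of 875 memberships tested) were chosen with earlier results of these data known, so lists are described by counts and medians with no test. Alternatives were RLE scaling, no filter, a mean of at least 1 CPM, DESeq2 1.42.0, voom (limma 3.58.1) with sample quality weights, the 8 post-extinction libraries alone, the replicate number as a block, a GC-content trend removed per library (91.2% of tested genes), and each of the 8 libraries left out. On simulated data with 16679 genes tested, the procedure recovered 93% of genes changed 1.5-fold and 100% of genes changed 2-fold in this comparison. Every simulated gene had the same spread between libraries, and only genes at a mean of at least 1 CPM were changed. Real genes differ in spread, so these shares check the procedure and do not give its power on the real data.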

Additional observations from a re-analysis of the deposited data

Results flagged for a closer look

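Among 122 groups of 4 libraries checked for a single value apart from the other 3, 3 were marked, where chance marks about 1 in 20. Etnppl, the ethanolamine-phosphate lyase of astrocytes, was at 99.3 CPM in ABX replicate 4 and at 53.3 to 54.1 CPM in the other 3 ABX libraries, all above the non-ABX libraries at 31.3 to 39.1 CPM. Acta2 was at 8.28 CPM in non-ABX replicate 1 and at 9.58 to 9.69 CPM in the other 3 non-ABX libraries, all above the ABX libraries. The mean log2 CPM of the 7 tested blood cell genes was 0.546 in ABX replicate 1 and -2.22 to -1.90 in the other ABX libraries.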

How the results depend on the processing

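The 3 calls stayed 3 with RLE scaling, with no filter and with a mean of at least 1 CPM. The count was 32 with the post-extinction libraries alone, 65 with the GC-content trend removed, 182 with DESeq2, 306 with voom and 0 with the replicate number as a block. It ran from 0 to 6 when 1 library was left out, with 6 without ABX replicate 1 and 0 without any other. The cause of these shifts was not tested. For the difference between contrasts, 0 genes passed in every fit but DESeq2, with 4. Genes with non-overlapping groups numbered 1867, and 2064 to 3714 with 1 library left out, where fewer libraries can overlap. They numbered 3714 without non-ABX replicate 4, 3038 without ABX replicate 3 and 2859 without ABX replicate 4.

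Same-numbered ABX and non-ABX libraries had correlations of their deviations of 0.171, -0.223, 0.00216 and -0.159, so the numbers were not taken to pair the samples. Not every library correlated best with its own number. None of the 31 genes named for their p or fold change turned direction in any of 16 alternatives that tested it. The fold changes ran from 0.57 to 0.70 for Krt9, 0.66 to 0.79 for Pkp2 and -0.56 to -0.46 for Npnt, and their adjusted p with 1 library left out from 0.0154 to 0.293. Without ABX replicate 1 the interferon and antigen presentation median was -0.22 against -0.09, and the choroid plexus median -0.25 against -0.0068. The immediate early median was -0.14 without non-ABX replicate 1 and 0.03 without non-ABX replicate 2, and the fibroblast median -0.05 without non-ABX replicate 1 and -0.24 without non-ABX replicate 4. Genes under 1 CPM rest on few reads at this depth.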

Other observations

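Among genes under a mean of 1 CPM, named here after their values were seen, Nts and Ccrl2 had an adjusted p under 0.1. Nts, the neurotensin precursor, was at 0.255, 0.288, 0.181 and 0.208 CPM with ABX and at 0.0189, 0.0378, 0.0842 and 0.0789 CPM without (log2 fold change 2.06, adjusted p = 0.0675). Ccrl2, an atypical chemoattractant receptor, was at 0.309 to 0.542 CPM with ABX and 0.769 to 1.01 CPM without (-1.10, adjusted p = 0.0675). Neither group pair overlapped. A gene as low as Nts can pass the filter on low counts through its higher group alone. Its adjusted p and the gap between its groups are therefore given only as description. Before extinction the values were 0.30 for Nts and -0.08 for Ccrl2.

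Genes that sense or process microbial metabolites had 16 of 31 members positive (median 0.0072), and 0 passed the test. Sult1a1, which sulfates phenols, had 0.51 and was the 1 of 31 with all ABX libraries above, where 4.74% of all genes tested were. Pglyrp1, which binds bacterial peptidoglycan, had -0.42 and was the 1 with all ABX libraries below, where 6.36% of all genes tested were. Ribosomal protein genes had 36 of 51 positive (median 0.09), with Rpl14 at 0.27, and 30 of 51 were positive without ABX replicate 1. Clock genes had 10 positive and 9 negative, with the clock repressor genes Cry1 and Nr1d1 at 0.27 and -0.35. Mitochondrially encoded genes had 11 of 13 positive (median 0.12, and 0.02 with the GC-content trend removed).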
